A study of Mus musculus with 2 samples.

Results

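The glycolysis and hypoxia response genes described here are 37 genes, taken from a list of named enzymes, transporters, oxygen sensors, HIF factors and HIF target genes by a rule that uses no measured value, although the list was proposed with earlier results of these data in view. All 37 were found among the 27998 genes of the count matrices, of which 17393 had at least 1 UMI in either library. A UMI (unique molecular identifier) is a tag that lets each captured mRNA molecule be counted once. Single-cell RNA was sequenced from fore- and hindlimb tendons of mouse pups at postnatal day 7 (P7) with the 10x Genomics 3′ platform, with 1 wild-type and 1 mutant library that each pooled 2 pups. The mutant carried a floxed Tgfbr2 gene, which encodes the TGFβ type II receptor, together with ScxCre, a Cre recombinase driven by Scleraxis (Scx), the transcription factor gene that marks tenocytes. The study's results write the mutant as Tgfbr2 f/-, while its methods describe a cross of Tgfbr2 f/f mice. With f/-, cells outside the ScxCre lineage would also lack 1 allele. Per the study's methods the mice of both groups also carried the tendon reporter ScxGFP and the Cre reporter Ai14 Rosa26-tdTomato. The control library is wild type in its title and genotype label but has the tag Het in another label, so a heterozygous control could not be told apart from a wild-type one. ScxCre activity starts in the embryo and is not uniform until shortly after birth, some cells outside the tendon also carry its reporter, and tendon cells were released by enzyme digestion and no sorting step is described for these libraries. With 1 library per condition no spread between animals could be measured, so no test was run, every interval given covers counting error only, and a batch cannot be told apart from the genotype.

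Glycolysis is the chain of cytosolic enzymes that splits glucose into pyruvate, which lactate dehydrogenase can turn into lactate. When oxygen is scarce, the prolyl hydroxylases of the Egln family no longer mark the HIF alpha subunits for degradation, and HIF then raises transcription of glycolytic enzymes, glucose transporters, carbonic anhydrase IX and mitophagy receptors by binding promoter sites around the letters ACGTG. Tendon is a sparsely vascularised, collagen-rich tissue, and its cells are generally held to live at low oxygen and to rely on glycolysis.

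Cells were placed in classes within each library. Scx-high cells held at least 30 Scx UMIs per 10000 UMIs, Scx-low fibroblasts were the remaining cells with at least 5 UMIs over Ly6a, Cd34, Dpt, Lum and Col3a1, and the rest are other cells. The wild-type library held 1178 Scx-high cells among 2364 cells (49.8%) and the mutant library 235 among 2592 (9.07%), against 828 and 1910 Scx-low fibroblasts. Scx counts can include transcripts of the ScxGFP reporter, and the Tgfbr2 count at the 3′ end does not check the deletion. The 7 tenocyte markers, which include Scx itself, summed to 113967 UMIs per 1000000 UMIs (CPM) in wild-type and 58805 in mutant Scx-high cells. Scx, which defines the class, made up 25435 CPM of this in wild-type and 27937 CPM in mutant cells. All 7 had UMIs in both classes of both libraries, and in Scx-low fibroblasts they summed to 12628 CPM (wild-type) and 13870.3 CPM (mutant). The 6 fibroblast markers summed to 716 CPM in wild-type and 5561 CPM in mutant Scx-high cells, so the class was not the same in both libraries. Scx-low fibroblasts need not be the same cells either. The study reports that most mutant tenocytes lost ScxGFP and gained Sca-1 (encoded by Ly6a) and CD34, which it found in wild-type epitenon, the layer around the tendon. Mutant Scx-low fibroblasts can thus include former tenocytes, and their share was not measured here. It describes ScxGFP-positive cells of mutant tendons as newly recruited. Median depth was 4285.5 and 4251 UMIs per cell in wild-type and mutant Scx-high cells, and 3761.5 and 2915.5 in wild-type and mutant Scx-low fibroblasts. The libraries had 2 cell barcodes in common.

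Car9, Ldha and Egln1 are shown by sequence because their promoters all carry the ACGTG letters while their levels in Scx-high cells differed between the libraries to very unequal degrees. Each sequence is the 250 bases before the RefSeq start site on GRCm38.p6, with ACGTG, or CACGT for the other strand, in capitals. The sequences of Car9 at chr4:43506776-43507025 (plus strand), Ldha at chr7:46845554-46845803 (plus strand) and Egln1 at chr8:124949255-124949504 (minus strand) read as follows.
Car9: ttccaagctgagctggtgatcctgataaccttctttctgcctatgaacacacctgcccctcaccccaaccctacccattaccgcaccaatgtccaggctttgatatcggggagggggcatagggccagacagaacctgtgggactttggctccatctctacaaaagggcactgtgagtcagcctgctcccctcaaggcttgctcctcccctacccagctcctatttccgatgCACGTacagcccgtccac
Ldha: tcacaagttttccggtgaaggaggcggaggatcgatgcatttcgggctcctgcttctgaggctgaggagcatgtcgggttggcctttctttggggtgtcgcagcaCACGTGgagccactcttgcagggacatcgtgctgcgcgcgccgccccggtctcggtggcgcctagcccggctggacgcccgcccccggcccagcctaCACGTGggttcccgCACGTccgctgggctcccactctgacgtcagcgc
Egln1: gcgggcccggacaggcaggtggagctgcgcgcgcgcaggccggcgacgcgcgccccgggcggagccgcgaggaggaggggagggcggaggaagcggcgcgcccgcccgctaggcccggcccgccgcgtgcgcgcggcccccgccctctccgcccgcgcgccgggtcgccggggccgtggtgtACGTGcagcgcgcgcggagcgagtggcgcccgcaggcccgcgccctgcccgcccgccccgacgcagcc
The match of Car9 starts 18 bases before the start site and that of Egln1 68 bases before it. Ldha has 5 matches, and each CACGTG counts as 2 because the palindrome holds the letters on both strands. The Ldha window with most matches is shown, and another RefSeq window of Ldha has 0. In windows from 250 bases before to 50 bases after each RefSeq start, 24 of the 33 members with a window (72.7%) held the letters in at least 1 window, against 21.8% of the 27025 genes with a window. Counted by window, 54.0% of the 50 windows of members and 19.6% of all 32851 windows held them. The list names known HIF target genes, so a higher share was favoured by how it was chosen. Promoter windows of Slc2a3, Bnip3l, Ndrg1 and Epas1 were not used here. A match describes letters only and says nothing of binding in these cells.

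The summed level of the 37 genes was higher in Scx-high cells than in Scx-low fibroblasts of the same library, and lower in the mutant than in the wild-type library in both classes. It was 4727 CPM (95% counting interval 4666 to 4788) in wild-type Scx-high cells and 3856 CPM (3789.5 to 3923) in wild-type Scx-low fibroblasts. In the mutant library it was 3857 CPM (3741 to 3976) in Scx-high cells and 3148 CPM (3103 to 3193) in Scx-low fibroblasts. The ratio of mutant to wild-type was 0.816 in both classes (0.789 to 0.843 in Scx-high cells, 0.798 to 0.835 in Scx-low fibroblasts), and that of Scx-high cells to Scx-low fibroblasts was 1.23 in both libraries (1.20 to 1.25 wild-type, 1.18 to 1.27 mutant). These equal values hold for CPM only. The median gene had a mutant to wild-type ratio of 1.26 in Scx-high cells and 0.985 in Scx-low fibroblasts. Its ratio of Scx-high cells to Scx-low fibroblasts was 0.747 (wild-type) and 0.966 (mutant). Relative to the median gene the summed levels therefore did not shift equally. Cell to cell spread was wide against these differences: the sum per 10000 UMIs had quartiles of 26.7 and 53.8 around a median of 38.4 in wild-type Scx-high cells, and of 25.7 and 45.4 around 32.9 in mutant Scx-high cells. The median was 31.1 (quartiles 21.7 and 44.0) in wild-type and 27.7 (19.4 and 37.7) in mutant Scx-low fibroblasts.

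Outside these classes, immune cells had a summed level of 3376 CPM (wild-type) and 3041 CPM (mutant) (178 and 180 cells), and mural cells, which wrap small vessels, 4543 and 4398 CPM (44 and 64 cells). The 11 cells with muscle markers in the mutant library had the highest sum, 7168 CPM (6372 to 8036), with Aldoa, the muscle aldolase, at 2169.9 CPM. The 5 cells with muscle markers in the wild-type library had a sum of 3634 CPM (2679 to 4818). Haemoglobin-rich cells had the lowest sum, 379 and 339 CPM. Most of that came from Bnip3l, the mitophagy receptor (also called Nix) that clears mitochondria from maturing red cells, at 326 and 270.3 CPM.

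**Figure D1:**
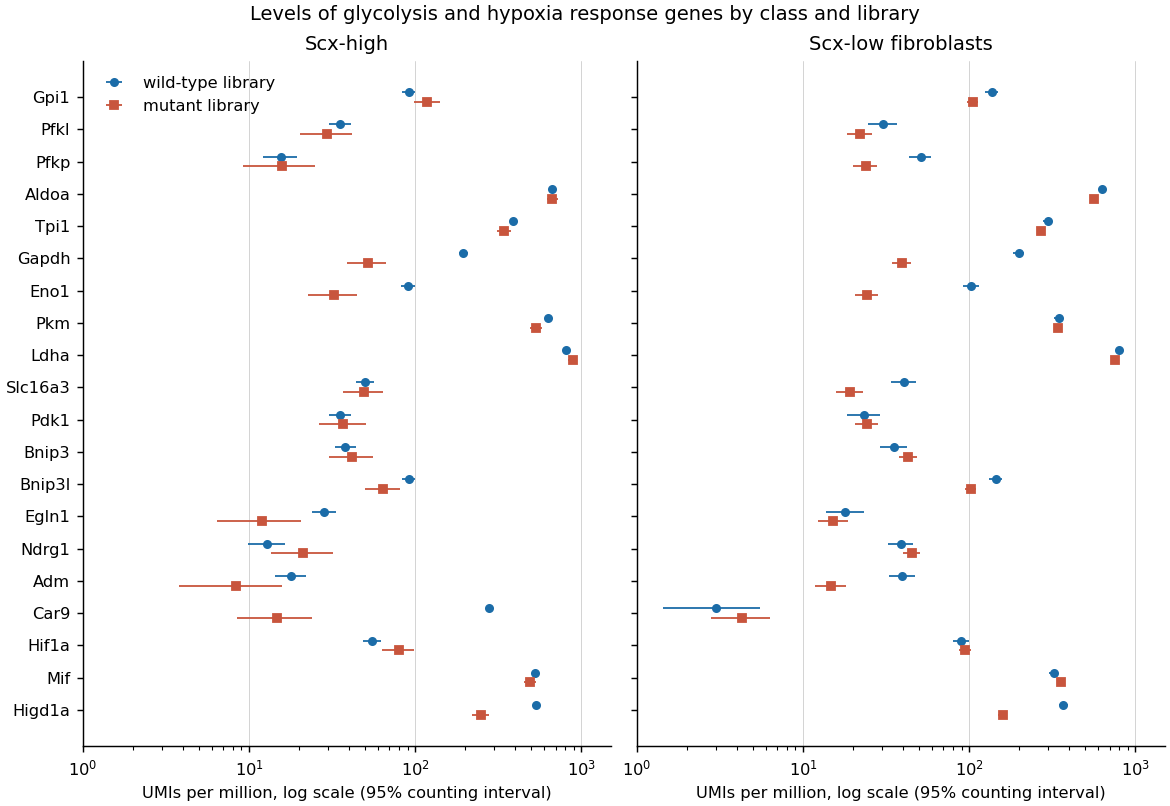
Levels of the 20 members with a mean of at least 20 CPM in at least 1 of the 4 comparisons, in Scx-high cells (left) and Scx-low fibroblasts (right) of the wild-type (circles) and mutant (squares) library, as CPM on a log axis with 95% counting intervals. Car9 sits at 279.5 CPM in wild-type Scx-high cells and at 14.8 CPM or less in the other 3 groups, while Aldoa and Ldha lie between 563 and 887 CPM in all 4.

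Ratios of single members were read only where the mean of the compared groups was at least 20 CPM, and a member was counted as higher or lower from 1.5-fold. In Scx-high cells 17 members passed this level, and mutant over wild-type none of them was at least 1.5-fold higher (30.6% of the 4837 genes tested were) and 5 were at least 1.5-fold lower (8.54% of all genes tested). The median log2 ratio of all genes tested was 0.33 there and that of the 17 members was -0.18, while Col1a1 alone took 73183 CPM in wild-type and 20467 CPM in mutant Scx-high cells. Relative to the median gene, 7 of the 17 were at least 1.5-fold lower. The 8.54% does not apply to that count, and no share of all genes with the same scaling is given. Car9 and Egln1 passed the level through the wild-type cells, so for them a lower value in the mutant cells was favoured by the filter. In Scx-low fibroblasts 18 members passed, of which none was higher (6.44% of 5497 genes) and 6 were lower (10.4%), with a median log2 ratio of -0.27 beside -0.02 for all genes tested, and here Adm and Slc16a3 passed the level through the wild-type cells. The 2 comparisons share no cells but come from the same 2 libraries.

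Among the glycolytic enzymes most abundant transcripts differed little between the libraries. Ldha, the lactate dehydrogenase subunit that makes lactate, was at 811 CPM in wild-type and 887 CPM in mutant Scx-high cells (ratio 1.09, 1.02 to 1.17), and at 794 and 759.6 CPM in Scx-low fibroblasts (0.956, 0.911 to 1.0). Aldoa was at 665 and 669 CPM in wild-type and mutant Scx-high cells (1.01, 0.926 to 1.09) and at 629.6 and 563 CPM in Scx-low fibroblasts (0.893, 0.846 to 0.944). Pkm, pyruvate kinase, was at 634 and 536 CPM in Scx-high cells (0.844, 0.771 to 0.923) and at 346 and 343 CPM in Scx-low fibroblasts (0.992, 0.923 to 1.07). All 3 stayed within 1.5-fold between the libraries in both classes. Relative to the median gene their ratios in Scx-high cells were 0.870 for Ldha, 0.80 for Aldoa and 0.672 for Pkm, so the direction of Ldha and Aldoa depended on the scaling.

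Tpi1, triosephosphate isomerase, had ratios of 0.883 (0.788 to 0.987) in Scx-high cells and 0.910 (0.841 to 0.986) in Scx-low fibroblasts. Gpi1, which converts glucose 6-phosphate to fructose 6-phosphate, was at 91.6 CPM in wild-type and 118 CPM in mutant Scx-high cells (1.29, 1.05 to 1.57), and at 137 and 105 CPM in Scx-low fibroblasts (0.767, 0.679 to 0.867). Its ratio thus lay on opposite sides of 1 in the 2 classes, with the difference itself not tested. The phosphofructokinases, which catalyse the committed step, were low. Pfkp was at 51.0 CPM in wild-type and 23.8 CPM in mutant Scx-low fibroblasts, 2.14-fold lower (1.71 to 2.69), and at 15.5 and 15.7 CPM in Scx-high cells. Pfkl had a ratio of 0.835 (0.554 to 1.22) in Scx-high cells and 0.726 (0.556 to 0.949) in Scx-low fibroblasts.

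Gapdh and Eno1, enzymes of the later steps, were lower in the mutant library in every class that could be read. Gapdh was at 195 CPM in wild-type and 51.7 CPM in mutant Scx-high cells, 3.77-fold lower (2.87 to 5.02), and at 199 and 39.4 CPM in Scx-low fibroblasts, 5.06-fold lower (4.36 to 5.90). In immune cells it was at 369 and 56.2 CPM, 6.56-fold lower. Eno1 was 2.81-fold lower (1.99 to 4.09) in Scx-high cells, 4.24-fold lower (3.48 to 5.18) in Scx-low fibroblasts and 2.40-fold lower in immune cells. Pgk1 had 69 UMIs in wild-type and 2 in mutant Scx-high cells (14.0 and 1.85 CPM), and 51 and 6 in Scx-low fibroblasts (15.3 and 0.992 CPM). Pgam1 had 11 UMIs (2.24 CPM) and 0 in Scx-high cells, where a count of 0 allows up to 2.77 CPM in the mutant library. In Scx-low fibroblasts it had 9 and 6 UMIs (2.70 and 0.992 CPM).

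Of the 3674 genes with a mean of at least 20 CPM over the libraries in Scx-high cells, Scx-low fibroblasts and immune cells, 16 were at least 2-fold lower in the mutant library in all 3 classes, and Gapdh and Eno1 were the members among them. The others included Ppia, Rps6, Gpx4 and Myl6. Of the 16 genes, 14 shared at least 20% of the sequence of their transcript ends with another annotated gene, which held for 67.4% of the windows of Gapdh and 71.6% of those of Eno1, mostly with pseudogenes. Among the 367 genes with that much sharing 3.81% were lower in all 3 classes, and among the 2954 genes with under 5% sharing 0.0339% were. Of the 14 members tested in all 3 classes, 9 had at least 20% sharing. Among them, Mif (61.7%) and Aldoa (36.4%) had ratios within 1.5-fold in all 3 classes. The others were Gpi1 (41.3%), Pkm (34.4%), Bnip3 (32.1%), Ldha (24.0%) and Tpi1 (20.9%). Sharing was 15.5% for Higd1a, 11.1% for Pgk1 and 0.0% for Pgam1. Counts of Gapdh and Eno1 are given as uncertain because their ends match other genes, and the part of shared ends in the lower values was not tested. Ldha, Aldoa and Pkm, the 3 most abundant members, also have ends that match other genes. The summed level therefore carries the same uncertainty. With all members the summed ratio of mutant to wild-type in immune cells was 0.901 (0.832 to 0.975). Without Gapdh, Eno1, Pgk1 and Pgam1, a set chosen after the values were seen, it was 1.02 (0.939 to 1.11) there. The same set left out gave 0.852 (0.824 to 0.881) in Scx-high cells and 0.872 (0.852 to 0.892) in Scx-low fibroblasts. Leaving out members with low ratios raises the summed ratio by construction, so these values do not correct for shared ends.

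**Figure D2:**
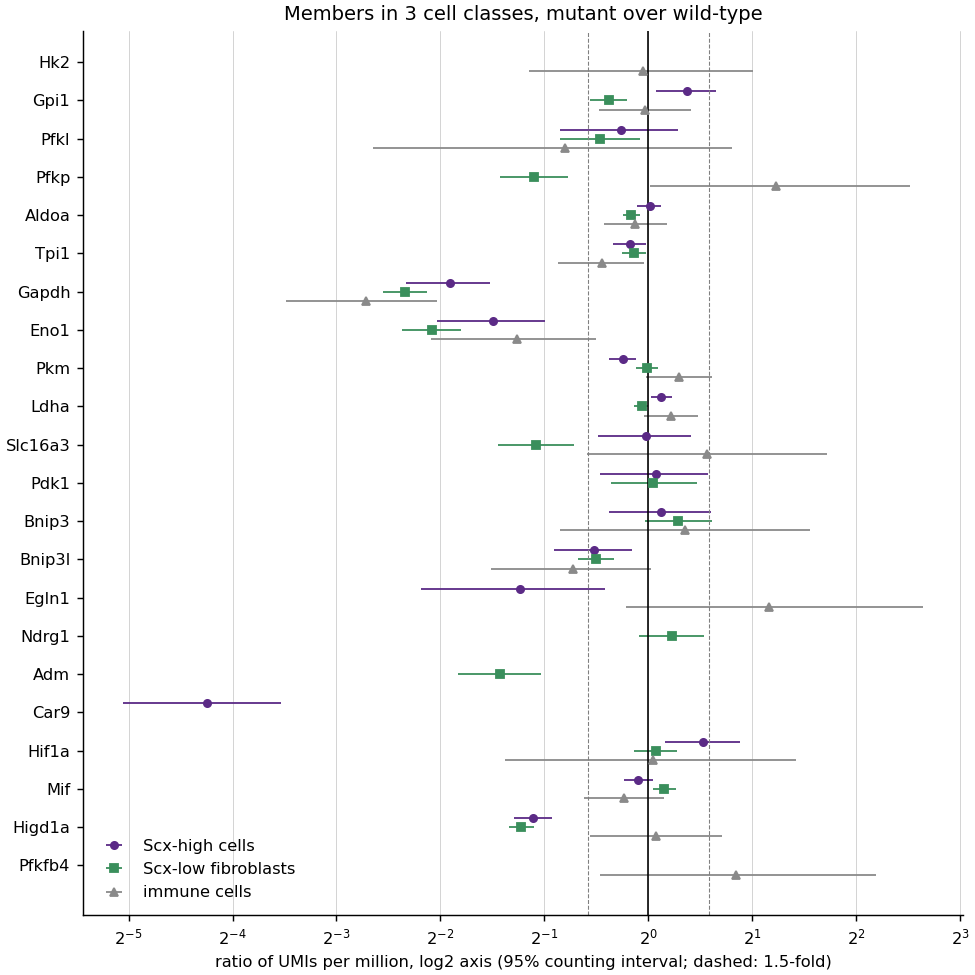
Ratio of mutant to wild-type CPM for each member at a mean of at least 20 CPM, in Scx-high cells (circles), Scx-low fibroblasts (squares) and immune cells (triangles), on a log2 axis with 95% counting intervals and dashed lines at 1.5-fold. Gapdh and Eno1 lie left of the dashed line in all 3 classes, Higd1a in both tendon classes but not in immune cells, and Car9, read in Scx-high cells, lies farthest left at 0.0529.

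Of the transporters, Slc16a3, the monocarboxylate carrier that exports lactate (MCT4), was at 40.5 CPM in wild-type and 19.2 CPM in mutant Scx-low fibroblasts, 2.11-fold lower (1.64 to 2.73). In Scx-high cells it was at 49.8 and 48.9 CPM (ratio 0.982, 0.715 to 1.33). The glucose transporters Slc2a1 and Slc2a3 stayed at 14.8 CPM or less in all 4 groups and were not read as ratios. Pdk1, a kinase that inhibits pyruvate dehydrogenase, had ratios of 1.05 (0.725 to 1.49) in Scx-high cells and 1.03 (0.778 to 1.38) in Scx-low fibroblasts. Pfkfb3 and Pfkfb4, which make the allosteric activator of phosphofructokinase, had 5.54 CPM or less in the 4 groups.

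Among the HIF target genes Car9 stood out. Car9 encodes carbonic anhydrase IX, a membrane enzyme that helps export acid and is a widely used marker of hypoxic cells. It was at 279.5 CPM (1374 UMIs) in wild-type Scx-high cells, 3.0 CPM (10 UMIs) in wild-type Scx-low fibroblasts and 9.97 CPM in wild-type other cells, a ratio of 93.2 (50.5 to 195) between the first 2. In the mutant library it was at 14.8 CPM (16 UMIs) in Scx-high cells, 18.9-fold lower (11.6 to 33.2) than in wild-type Scx-high cells, and at 4.30 CPM (26 UMIs) in Scx-low fibroblasts. After each cell was thinned to 1500 UMIs, 28.3% of wild-type Scx-high cells (25.6 to 31.1; 308 of 1089, with 89 shallower cells left out) and 2.31% of mutant ones (0.756 to 5.32; 5 of 216, with 19 left out) had a Car9 UMI. In immune cells the thinned share was 2.88% in the wild-type (0.790 to 7.20) and 0% in the mutant library (0 of 101 cells, which at 3 cells allows a share of up to 2.97%), beside 0.633% of mutant Scx-low fibroblasts (0.316 to 1.13). Scx itself had UMIs in 70.2% of wild-type and 13.3% of mutant immune cells before thinning (541 and 79.9 CPM). The same held for 62.4% and 13.9% of haemoglobin-rich cells. Low Car9 counts outside the Scx-high class may thus include RNA released by other cells, which was not tested. Before thinning, 571 of the 1178 wild-type Scx-high cells had no Car9 UMI, 271 had 1 and 336 had 2 or more, up to 10, against 222 with none among the 235 mutant ones.

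Car9 also varied within the Scx-high class with the level of Scx. In the wild-type library it was at 149 CPM (117 to 187) in the 146 cells with 30 to under 100 Scx UMIs per 10000, 280.5 CPM (262 to 300.4) in the 697 cells with 100 to under 300, and 321 CPM (293 to 351) in the 335 cells with 300 or more. In the mutant library the same bins gave 2.80 CPM (1 UMI, 90 cells), 11.4 CPM (79 cells) and 29.2 CPM (11 UMIs, 14.6 to 52.3; 66 cells). The highest over the lowest mutant bin gave 10.4 (1.52 to 449). With 16 Car9 UMIs over the 3 mutant bins, the size of this rise is poorly known. The highest Scx bin of the mutant library therefore lay far under the lowest bin of the wild-type library. The summed level of the 37 members had no such order: it was 4554, 4814 and 4614 CPM over the 3 bins of the wild-type and 3972, 3686 and 3907 CPM over those of the mutant library. Across Scx-high cells the rank correlation of the sum with the Scx level was 0.00 (1178 cells) and -0.01 (235 cells), and with depth 0.12 and 0.17, values that share the cells' own totals.

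**Figure D3:**
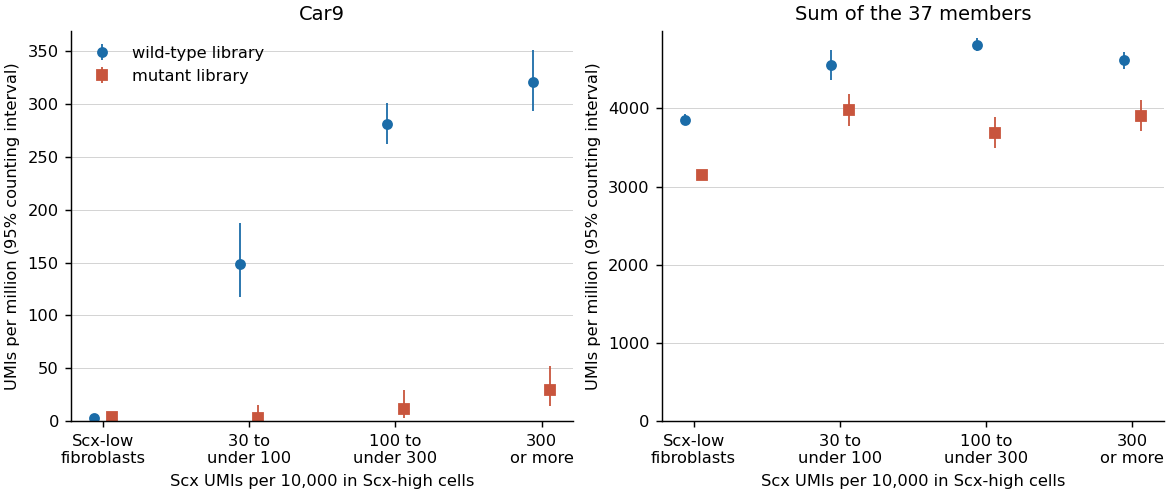
Car9 (left) and the sum of the 37 members (right) in Scx-low fibroblasts and in Scx-high cells binned by Scx UMIs per 10000, as CPM with 95% counting intervals, for the wild-type (circles) and mutant (squares) library. Wild-type Car9 goes from 3.0 CPM in Scx-low fibroblasts to 321 CPM in the highest bin, mutant Car9 reaches 29.2 CPM, and the sum stays between 3148 and 4814 CPM.

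Higd1a, a mitochondrial inner membrane protein induced by hypoxia, was lower in the mutant library in both tendon classes. It was at 535 CPM in wild-type and 248 CPM in mutant Scx-high cells, 2.15-fold lower (1.90 to 2.45), and at 369 and 159 CPM in Scx-low fibroblasts, 2.33-fold lower (2.14 to 2.54). In immune cells it was at 109 CPM (wild-type) and 115 CPM (mutant) (ratio 1.05, 0.677 to 1.63). Thinned shares of cells with a Higd1a UMI had the same order, 45.6% of wild-type and 27.8% of mutant Scx-high cells, and 33.8% and 18.6% of Scx-low fibroblasts, against 15.8% and 12.9% of immune cells. Without Gapdh, Eno1, Pgk1, Pgam1, Car9 and Higd1a, a set chosen after the values were seen, the summed ratio of mutant to wild-type was 0.972 in Scx-high cells and 0.923 in Scx-low fibroblasts.

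The oxygen sensors and HIF factors did not share 1 direction. Egln1, the main prolyl hydroxylase that marks HIF-1α, was at 28.3 CPM (139 UMIs) in wild-type and 12.0 CPM (13 UMIs) in mutant Scx-high cells, 2.36-fold lower (1.33 to 4.54), and at 18.0 and 15.2 CPM in Scx-low fibroblasts. Egln3 had 11 UMIs (2.24 CPM) in wild-type and 0 in mutant Scx-high cells, where a count of 0 allows up to 2.77 CPM. Hif1a, the inducible alpha subunit, was at 55.1 CPM in wild-type and 79.4 CPM in mutant Scx-high cells (1.44, 1.12 to 1.84), and at 89.4 and 93.9 CPM in Scx-low fibroblasts (1.05, 0.911 to 1.21). Leaving out cells with markers of other cell types brought its Scx-high ratio to 1.70, and centring on the median gene to 1.15. Epas1, which encodes HIF-2α, was at 3.66 and 4.62 CPM in wild-type and mutant Scx-high cells and at 24.0 and 5.62 CPM in Scx-low fibroblasts, beside 127 and 149 CPM in mural cells. HIF protein is set mainly by degradation, which mRNA counts do not measure.

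The mitophagy receptors differed by less than 1.5-fold between the libraries in both tendon classes, although relative to the median gene Bnip3l was at 0.554 in Scx-high cells, and in immune cells its ratio was 0.607 (0.350 to 1.02). Bnip3 had ratios of 1.09 (0.771 to 1.52) in Scx-high cells and 1.22 (0.977 to 1.53) in Scx-low fibroblasts, and Bnip3l 0.696 (0.532 to 0.898) and 0.705 (0.625 to 0.796). Of the secreted factors, Adm, the vasodilator adrenomedullin, was at 39.6 CPM in wild-type and 14.7 CPM in mutant Scx-low fibroblasts, 2.69-fold lower (2.04 to 3.56), and at 17.9 and 8.31 CPM in Scx-high cells. Mif, a cytokine, had ratios of 0.935 (0.850 to 1.03) and 1.11 (1.03 to 1.20). Vegfa, the angiogenic factor, was under the level read, at 15.9 CPM or less in the 4 groups. It had 22 UMIs in wild-type and 96 in mutant Scx-low fibroblasts (6.60 and 15.9 CPM), so it was higher in the mutant library there. In Scx-high cells it had 39 and 10 UMIs (7.93 and 9.23 CPM). Ndrg1 was at 38.7 and 45.1 CPM in wild-type and mutant Scx-low fibroblasts (1.17, 0.942 to 1.45). Hk1, Hk2, Pfkm, Aldoc, Car12, Ankrd37, Ddit4 and Ak4 did not reach a mean of 20 CPM in any of the 4 comparisons.

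Markers of other cell types moved with some of these comparisons. The 6 mural markers, led by Acta2 (smooth muscle actin), summed to 4944 CPM in wild-type and 626 CPM in mutant Scx-low fibroblasts, with all 6 detected in both. Without cells holding 3 or more UMIs of other cell types' markers the summed ratio in Scx-low fibroblasts was 0.884, while Adm had a ratio of 0.343, Pfkp 0.426, Slc16a3 0.446 and Higd1a 0.474. In Scx-high cells the mural markers summed to 422 CPM in wild-type and 942 CPM in mutant cells, muscle markers to 38.7 and 286 CPM, Schwann markers to 9.77 and 67.4 CPM, cartilage markers to 1164 and 517 CPM and cycling markers to 447 and 1107 CPM, with 8.66% and 17.9% of cells cycling. Cells with 3 or more UMIs of other cell types' markers were 191 of 1178 wild-type and 89 of 235 mutant Scx-high cells, and without them the summed ratio was 0.803, Car9 had a ratio of 0.0641, Egln1 0.435 and Higd1a 0.475. Without cycling cells Car9 had a ratio of 0.0589 and Higd1a 0.461 in Scx-high cells. Genes of the dissociation response (Fos, Jun, Atf3 and related genes) summed to 3261 CPM in wild-type and 5481 CPM in mutant Scx-low fibroblasts, and to 2609 and 2416 CPM in Scx-high cells, and their part in the results was not tested.

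Within the wild-type library Scx-high cells and Scx-low fibroblasts were compared for 20 members. Of these, 5 were at least 1.5-fold higher in Scx-high cells (8.91% of 5097 genes tested) and 5 were at least 1.5-fold lower (38.3%). The median log2 ratio of all genes tested was -0.42 and that of the members 0.10, and relative to the median gene 9 members were higher and 3 lower. For these last counts no share of all genes with the same scaling is given. The 5 higher members were Car9, Pkm (634 against 346 CPM, ratio 1.83, 1.71 to 1.96), Mif (527 against 322 CPM, 1.64, 1.52 to 1.76), Egln1 (1.57, 1.15 to 2.16) and Pdk1 (1.5, 1.14 to 1.99). The 5 lower members were Pfkp (15.5 against 51.0 CPM, 3.30-fold), Ndrg1 (12.8 against 38.7 CPM, 3.02-fold), Adm (17.9 against 39.6 CPM, 2.21-fold), Hif1a (55.1 against 89.4 CPM, 1.62-fold) and Bnip3l (91.6 against 145 CPM, 1.58-fold). Pfkp, Ndrg1, Adm, Car9 and Egln1 each passed the level only through the class where they were high, so the filter favoured these 5 of the 10. Ldha, Gapdh and Aldoa had ratios of 1.02, 0.977 and 1.06 in the same comparison, and relative to the median gene 1.37, 1.31 and 1.41.

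Within the mutant library 16 members were compared between the classes, with 4 at least 1.5-fold higher in Scx-high cells (10.9% of 5308 genes) and 2 at least 1.5-fold lower (14.8%). Slc16a3 was at 48.9 CPM in Scx-high cells and 19.2 CPM in Scx-low fibroblasts (2.55, 1.81 to 3.56), Higd1a at 248 and 159 CPM (1.57, 1.36 to 1.80), Pkm at 536 and 343 CPM (1.56, 1.42 to 1.71) and Pdk1 at 36.9 and 24.1 CPM (1.53, 1.05 to 2.18). Slc16a3 passed the level only through the Scx-high cells. Ndrg1, at 21.2 and 45.1 CPM, was 2.13-fold lower, and Bnip3l, at 63.7 and 102 CPM, 1.60-fold lower. Pkm and Pdk1 were past 1.5-fold upward, and Ndrg1 and Bnip3l downward, in each library read on its own. The Pdk1 ratio was under 1.5 in 4 settings of the wild-type library (1.42 to 1.49) and 2 of the mutant library (1.25 and 1.32), and Bnip3l was within 1.5-fold in 2 settings of each (0.767 and 0.848, 0.671 and 0.721). Car9, with 16 and 26 UMIs, was under the level for a counted ratio in the mutant library, where the 2 classes gave 3.44 (1.72 to 6.65).

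**Figure D4:**
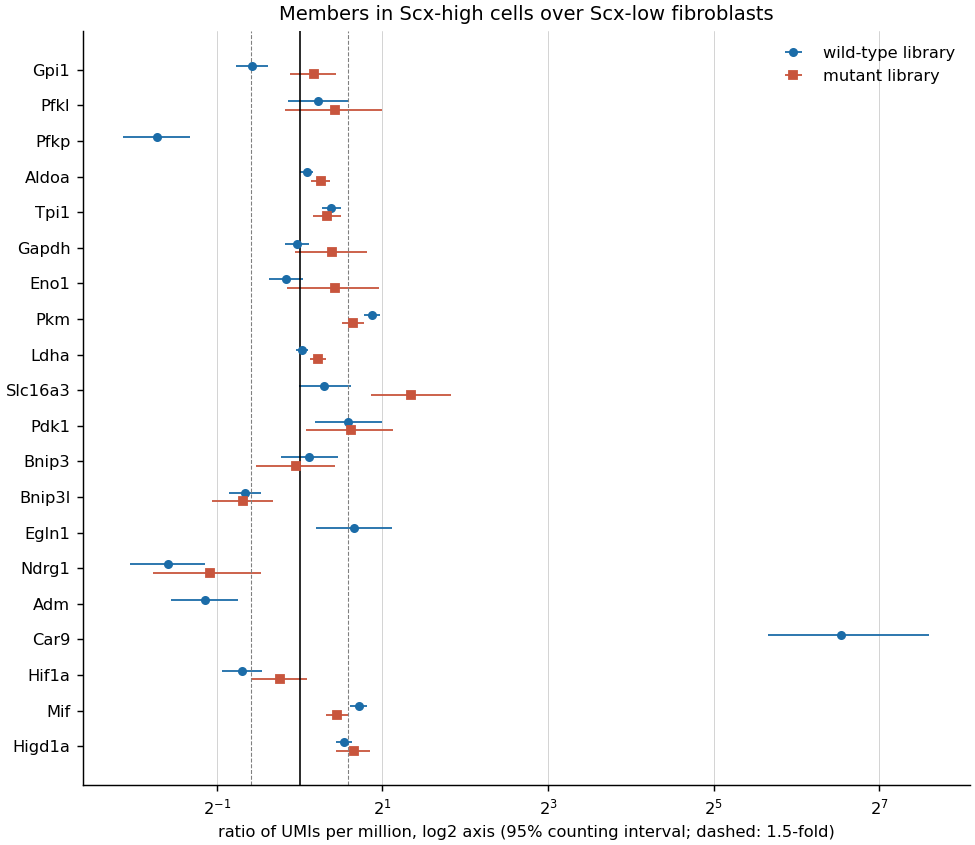
Ratio of Scx-high cells to Scx-low fibroblasts for each member at a mean of at least 20 CPM, in the wild-type (circles) and mutant (squares) library, on a log2 axis with 95% counting intervals and dashed lines at 1.5-fold. Car9 in the wild-type library lies far to the right at 93.2, Pkm and Pdk1 lie at or past the upper dashed line in both libraries, and Ndrg1 and Bnip3l past the lower one.

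Other members were set against Car9 and against cartilage markers inside wild-type Scx-high cells. With every cell thinned to 1500 UMIs, the 308 cells with a Car9 UMI had Higd1a at 665 CPM and the 781 cells without one at 464 CPM (ratio 1.43, 1.24 to 1.65). The same split gave ratios of 1.27 (1.11 to 1.44) for Aldoa, 1.26 (1.10 to 1.45) for Mif, 1.21 (1.06 to 1.38) for Pkm and 1.16 (1.03 to 1.30) for Ldha. Eno1 and Hif1a had 0.920 (0.598 to 1.38) and 0.774 (0.429 to 1.33). Scx itself, at 1.15 (1.13 to 1.17), and Col1a1, at 1.09 (1.07 to 1.10), were also higher in cells with a Car9 UMI. Tenomodulin (Tnmd), another tenocyte marker, was lower in them, at 0.947 (0.909 to 0.986). In the 544 wild-type Scx-high cells with at least 5 UMIs of cartilage markers the summed level of the 37 members was 5024 CPM, against 4367 CPM in the 634 others (ratio 1.15, 1.12 to 1.18), with Higd1a at 611 and 443 CPM (1.38, 1.27 to 1.5), Car9 at 305 and 248 CPM (1.23, 1.10 to 1.37) and Pfkp at 10 and 22 CPM (0.455, 0.274 to 0.743). Cells were not thinned for this split, so deeper cells reached 5 UMIs more readily, and the part of depth was not tested.

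Other genes of the same pathways were read from fixed lists. For their counts relative to the median gene no share over all genes is given. Of the 22 other HIF target genes, 17 were read in Scx-high cells, and mutant over wild-type 6 were higher (35.3%, beside 30.6% of all genes) and 3 lower (17.6%, beside 8.54%), and their log2 ratios had a median of 0.36 beside 0.33 for all genes, while relative to the median gene 5 were higher and 5 lower. P4ha1, a prolyl 4-hydroxylase subunit that modifies collagen, was at 829 CPM in wild-type and 130.2 CPM in mutant Scx-high cells (ratio 0.157, 0.132 to 0.186), with Rora at 0.255 and Loxl2 at 0.478. Angptl4, at 4.48 and 60.9 CPM, was higher (13.6, 8.29 to 23.2), as were Plod2 (5.92, 4.99 to 7.02) and P4ha2 (4.63, 3.06 to 7.01), which also act on collagen. Angptl4 passed the level only through the mutant cells, so for it a higher value was favoured by the filter. In Scx-low fibroblasts 15 of the 22 were read, 5 higher (33.3%, beside 6.44% of all genes) and 4 lower (26.7%, beside 10.4%), and the log2 ratios had a median of 0.09. Of the 21 genes of pyruvate entry and the TCA cycle, 19 were read, with 10 higher (52.6%, beside 30.6% of all genes) and 0 lower in mutant Scx-high cells and a median log2 ratio of 0.61, but relative to the median gene, a scaling of these lists chosen after seeing the data, 0 were higher and 1 lower. The same list had 0 higher and 1 lower, the pyruvate carrier subunit Mpc1 (0.466, 0.360 to 0.602), in Scx-low fibroblasts. The 18 other glycolysis and glucose genes had 2 higher (33.3%, beside 30.6% of all genes) and 1 lower (16.7%, beside 8.54%) of 6 read in Scx-high cells, the lower one being Slc16a1, the lactate carrier MCT1 (0.609, 0.404 to 0.889). In Scx-low fibroblasts 2 of the 5 read were higher (40.0%, beside 6.44% of all genes) and 0 lower. Relative to the median gene Slc16a1 was at 1.86 and Ldhb at 2.82 there, so Slc16a1 went opposite ways in the 2 classes. The 7 genes of the pentose phosphate pathway had 1 higher of 4 read in Scx-high cells, Pgd (1.57, 1.05 to 2.30). That is a smaller share than the 30.6% of all genes, and relative to the median gene 0 were higher.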

How the data were processed

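Single-cell RNA was sequenced from 1 wild-type and 1 mutant library (2364 and 2592 cells, 9451606 and 8250248 UMIs). The deposited UMI counts were made by the authors with Cell Ranger (version 1.2.0 per the submitters' processing notes, while the study's methods name another release) against mm10, without normalization. All barcodes were used. Members and gene lists were chosen with earlier results of these data known, and the classes follow given marker rules. UMIs were summed per class and scaled to CPM. Levels have exact Poisson, ratios exact conditional and shares exact binomial 95% intervals. With 1 library per condition no test was run. Scrublet called 26 and 8 cells (1.10% and 0.309%) as doublets, too few in the mutant library to be relied on, and they stayed in. On simulated counts of 4427 genes the direction was right for 200 of 200 changed genes and 95.2% of intervals held the true value. These counts were drawn with the Poisson error that the intervals assume, with changes larger than 1.5-fold and no spread between cells or animals. They check the calculation only. All 37 members were named, with full values for those above 20 CPM, and context genes by their largest ratios. Positions are from GENCODE M21 and promoters from RefSeq, both on GRCm38. Shared ends are the percent of 31-base windows in the last 500 transcript bases found in other annotated genes. Python 3.11.15, NumPy 2.4.6, SciPy 1.17.1, pandas 2.3.3 and scanpy 1.11.5 were used.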

Additional observations from a re-analysis of the deposited data

Results flagged for a closer look

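Gpi1, the glycolytic isomerase, was the only member whose ratio of mutant to wild-type lay on opposite sides of 1 in the 2 tendon classes with neither counting interval reaching 1. It was 1.29 (1.05 to 1.57) in Scx-high cells and 0.767 (0.679 to 0.867) in Scx-low fibroblasts. The difference was not tested, since each condition has 1 library. Of the windows at the Gpi1 transcript ends, 41.3% were shared with other annotated genes, and the part of this in its ratios was not tested. Relative to the median gene the ratio in Scx-high cells was 1.03.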

How the results depend on the processing

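No ratio past 1.5-fold turned to the other side of 1: of the 268 recomputed values of these 27 ratios, 254 stayed past 1.5-fold. The other 14 were of Pdk1 (1.42 to 1.49), Bnip3l (0.767 and 0.848), Hif1a (0.712 to 0.826) and Egln1 (1.45) in the wild-type classes, and of Pdk1 (1.25 and 1.32) and Bnip3l (0.671 and 0.721) in the mutant classes. Wild-type or mutant classes stand here for Scx-high cells over Scx-low fibroblasts of that library. With the 20 most abundant genes left out of the total the sum was 0.706 for mutant over wild-type Scx-high cells, 1.49 for the classes of the wild-type and 1.29 for those of the mutant library. Centred on the median gene these 3 were 0.649, 1.64 and 1.27. A threshold of 60 Scx UMIs gave 0.786 for mutant over wild-type Scx-high cells and 1.17 for the mutant classes. Without the 3 most abundant members the mutant over wild-type sum was 0.675 in Scx-high cells and 0.711 in Scx-low fibroblasts, and the wild-type classes gave 1.25. Without Car9, chosen after seeing the data, it was 0.864 in Scx-high cells and 1.15 for the wild-type classes. Without Gapdh, Eno1, Pgk1 and Pgam1, also chosen after seeing the data, it was 0.852 and 0.872 mutant over wild-type with 3 lower members in Scx-high cells, and without these, Car9 and Higd1a 0.972 and 0.923, with 1.14 for the wild-type classes. A fibroblast threshold per 10000 UMIs gave 0.841 in Scx-low fibroblasts and 1.28 for the wild-type classes, the mean over cells 1.28 for the latter, leaving out cells with other markers 0.884 in Scx-low fibroblasts, 1.28 for the wild-type and 1.17 for the mutant classes, and leaving out cycling cells 0.790 in Scx-low fibroblasts.

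Counts of members moved as follows. They are given without the share of all genes in the same setting, so they describe only how the counts depend on the setting. At 2-fold, 1 member was higher and 3 lower in wild-type Scx-high over Scx-low cells, and 1 higher and 1 lower in the mutant library. With a mean of at least 50 CPM, 3 were higher and 2 lower in the wild-type classes, 2 higher and 1 lower in the mutant classes, and 3 lower for mutant over wild-type Scx-low fibroblasts. With no level filter, mutant over wild-type had 2 higher and 12 lower in Scx-high cells and 3 higher and 10 lower in Scx-low fibroblasts, while the wild-type classes had 10 higher and 8 lower and the mutant classes 10 higher and 10 lower. Without the filter members with few UMIs are counted, such as Pgam1 and Egln3, each with 11 UMIs in wild-type and 0 in mutant Scx-high cells. In the wild-type classes 8 were higher and 3 lower without the 20 most abundant genes in the total, and 9 and 3 centred on the median gene. The mean over cells, leaving out cells with other markers and leaving out cycling cells each gave 1 higher member (Hif1a) for mutant over wild-type Scx-high cells, and the last 2 settings 1 lower member in the mutant classes. The causes were not tested. No paired analysis was possible because each condition has 1 library, and for the same reason no replicate could be left out. Depth limits the members under 20 CPM: in mutant Scx-high cells 3 UMIs correspond to 2.77 CPM, and 21 of the 37 members were under 20 CPM there.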
